A study of Arabidopsis thaliana with 8 samples.

Results

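SAUR genes (SMALL AUXIN UP RNA) encode short plant proteins and form a large family of auxin-induced growth genes in Arabidopsis thaliana. The genes described here are all those with a SAUR number as symbol or synonym in the NCBI gene table, except SAUR62 to SAUR68 and AT5G01830, an ARM repeat protein that carries such a synonym. The annotation holds 72 genes of this kind, and 58 of them were listed among the 22951 genes of the expression table. The other 14 were not used in any count (SAUR4, SAUR10, SAUR17, SAUR18, SAUR24, SAUR25, SAUR29, SAUR39, SAUR47, SAUR53, SAUR57, SAUR58, SAUR73 and SAUR75). Of the 58 listed genes, 46 had a mean of at least 1 FPKM over all libraries and entered the tests, and 12 did not.

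RNA was sequenced from whole seedlings 5 days old in 8 libraries, all in the Col-0 background. There were 2 libraries of MIR394A_OE, a line overexpressing the microRNA gene MIR394A, 3 of bin2-1, and 3 of wild-type Col-0. The bin2-1 allele is a dominant point mutation that keeps the BIN2 kinase active and so blocks brassinosteroid signalling. Seeds of all groups had 4 days of cold at 4 °C before growth at 22 °C with 16 h of light and 8 h of dark. The sources used here do not give the promoter that drives MIR394A, the number of transgenic lines or the zygosity of bin2-1. The labels do not state whether replicates were sown or harvested apart, so the p-values reflect only how much these libraries vary, which may be technical variation. In whole seedlings, fewer cells of a type and less RNA per cell cannot be told apart.

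Auxin raises transcription of many SAUR genes within minutes through ARF factors, and brassinosteroid and light signals act on the same promoters through BZR1, BES1 and PIF factors. SAUR proteins of the SAUR19 type bind and inhibit PP2C-D phosphatases. These phosphatases otherwise switch off the plasma membrane proton pumps (AHA), whose activity acidifies and loosens the wall so that cells can expand. Other SAUR genes have been linked to light responses of cotyledons and hypocotyls, to the apical hook, to ethylene receptors and to leaf senescence. The series asks how miR394 and its target act on brassinosteroid signalling and hypocotyl elongation, a process in which SAUR genes are known growth effectors.

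The estimated depth was 9.67 to 11.27 M reads per library, and 3 reads on 1 kb of transcript were worth 0.266 to 0.310 FPKM (counting error only). LCR, an F-box gene that miR394 targets, was at 17.15 and 17.47 FPKM in MIR394A_OE and at 19.62, 19.62 and 23.86 FPKM in Col-0 (log2 fold change -0.26, SE 0.22; limma, adjusted p = 0.874). MIR394A itself was not analysed here, and the bin2-1 point mutation cannot be checked from expression values. MIR394A_OE replicate 1 and Col-0 replicate 1 stood apart from their groups: across genes MIR394A_OE replicate 1 correlated at 0.952 with MIR394A_OE replicate 2 and at 0.969 with Col-0 replicate 1, while MIR394A_OE replicate 2 correlated at 0.982 with Col-0 replicate 2. Col-0 replicate 1 stood apart less clearly. It correlated at 0.970 and 0.955 with Col-0 replicates 2 and 3, which correlated at 0.979 with each other, and bin2-1 replicates correlated at 0.961 to 0.984. Fold changes and counts given below that turned sign, or moved by more than 1.5 times, without MIR394A_OE replicate 1, Col-0 replicate 1 or both are followed by the value without. With MIR394A_OE replicate 1 left out, MIR394A_OE is a single library that is assumed to vary like the other groups. The labelled tissue was checked against organ markers: the summed level of 7 green shoot markers was 40519 and 49047 FPKM in MIR394A_OE, 29929 to 42929 FPKM in bin2-1 and 38470 to 43594 FPKM in Col-0. The sum of 8 root markers was 38.8 and 39.1 FPKM in MIR394A_OE, 52.7 to 55.9 FPKM in bin2-1 and 39.97 to 46.9 FPKM in Col-0, so this sum was higher in each bin2-1 library than elsewhere. PIN2 and EXPA18, the most abundant of these markers, weigh most in it. Of 7 tested root markers 5 were above 0 in bin2-1 against Col-0, while COBL9 (-0.14) and SMB (-0.16) were below 0. The sum of 5 seed storage markers ranged from 1.12 to 10.61 FPKM, with CRU2, CRU3 and SESA3 listed at 0 in some libraries. The part of these markers in the SAUR values was not tested.

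SAUR78 was the most abundant SAUR gene in each library, at 178 and 155 FPKM in MIR394A_OE, 62.1 to 134 FPKM in bin2-1 and 120.3 to 217 FPKM in Col-0. It made up 34.4% and 35.3% of the summed FPKM of the 58 genes in MIR394A_OE, 19.1% to 32.0% in bin2-1 and 34.5% to 46.1% in Col-0. FPKM is scaled by transcript length, so levels of different genes can be set side by side. SAUR79, SAUR6, SAUR31, SAUR50 and SAUR32 followed, with means over all 8 libraries of 21.6, 20.1, 19.5, 15.3 and 14.8 FPKM. SAUR31 (AT4G00880), to which no role is assigned here, was at 24.6 and 22.4 FPKM in MIR394A_OE, at 16.65, 19.99 and 17.4 FPKM in bin2-1, and at 23.55, 19.2 and 12.5 FPKM in Col-0. Both MIR394A_OE values were above every bin2-1 value and overlapped Col-0. These 5 levels lay within the spread of single libraries and have no firm order among themselves. In all, 10 genes had a mean of at least 10 FPKM and 36 lay between 1 and 10. SAUR2, SAUR11, SAUR40, SAUR42 and SAUR43 were listed at 0 in most libraries, and 49 of the 58 genes were above 0 in every library.

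**Figure D1:**
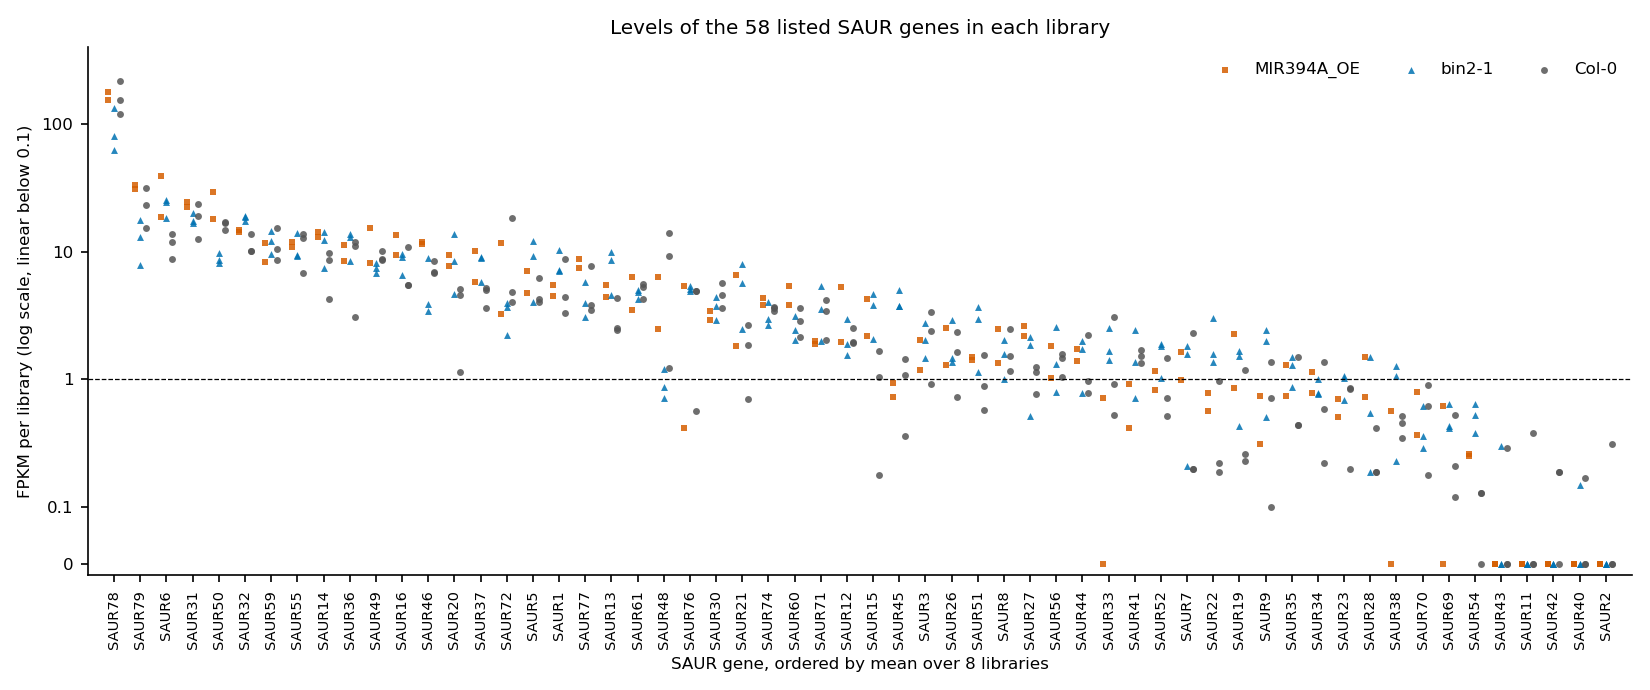
FPKM of the 58 listed SAUR genes (x axis, ordered by mean) in each library on a log scale that is linear below 0.1. Squares are MIR394A_OE (n = 2), triangles bin2-1 (n = 3) and circles Col-0 (n = 3), and the dashed line marks 1 FPKM; SAUR78 stands above every other gene.

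The summed level of all 58 genes was 519 and 439 FPKM in MIR394A_OE, 325 to 419 FPKM in bin2-1 and 349 to 471 FPKM in Col-0, so the groups overlapped. Without SAUR78 the sum was 340.4 and 284 FPKM in MIR394A_OE, 250.4 to 285 FPKM in bin2-1 and 228 to 254 FPKM in Col-0. Both MIR394A_OE sums without SAUR78 exceeded every Col-0 sum, and bin2-1 overlapped both groups.

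No SAUR gene passed the test across all genes in any of the 3 comparisons (limma on log2(FPKM + 1), Benjamini-Hochberg adjusted p under 0.05). In MIR394A_OE against Col-0 the count was 0 of 46, where 0.0106% of all 18798 tested genes passed, all of them lower. In bin2-1 against Col-0 it was 0 of 46 against 0.112% of all genes (0.0532% higher and 0.0585% lower). In MIR394A_OE against bin2-1 it was 0 of 46 against 0.0532% (0.0213% higher and 0.0319% lower). With so few calls over the genome, a count of 0 among 46 genes is near the background in each comparison. SAUR45 in bin2-1 came nearest (adjusted p = 0.0619 against Col-0).

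Below that threshold, 6 SAUR genes had an unadjusted p under 0.05 in MIR394A_OE against Col-0, each of them higher, which is 13.0% of the 46 where all genes gave 4.78% (3.15% higher and 1.63% lower). In bin2-1 against Col-0 there were 14 (10 higher and 4 lower), or 30.4% against 17.8% of all genes (11.1% higher and 6.67% lower). In MIR394A_OE against bin2-1 there were 9 (6 higher and 3 lower), or 19.6% against 19.0% (8.08% higher and 10.9% lower). Both comparisons with Col-0 use the same Col-0 libraries, and the shares depended on which libraries were used. With Col-0 replicate 1 alone left out, the count in MIR394A_OE against Col-0 was 4 of 46 (8.7%; 8.78% of all genes). In bin2-1 against Col-0 it was then 10 (21.7%; 16.5% of all genes), which stayed above the background. Between the mutant lines it was 10 (21.7%; 19.7% of all genes). The shares differed again without both of the 2 libraries that stood apart. Without them the count was 2 of 46 in MIR394A_OE against Col-0, or 4.35% where all genes gave 5.52%. It was 9 in bin2-1 against Col-0, or 19.6% against 23.0%, and 3 between the mutant lines, or 6.52% against 9.55%, so each share was then below that of all genes.

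The median log2 fold change of the 46 genes was 0.23 in MIR394A_OE against Col-0, with 33 above 0, where all genes had a median of 0.04 and 55.6% above 0. It was 0.21 in bin2-1 against Col-0, with 29 above 0, where all genes had a median of 0.10 and 63.4% above 0. Between MIR394A_OE and bin2-1 it was 0.00, with 24 above 0, and all genes had a median of -0.06 with 43.8% above 0. Without the 2 libraries that stood apart, 27 of 46 were above 0 in MIR394A_OE (58.7%; 59.6% of all genes), with a median of 0.16 where all genes had 0.07. For bin2-1 the share of SAUR genes above 0, 63.0%, was near that of all genes, and without Col-0 replicate 1 it was 58.7% (64.7% of all genes), with a median of 0.06 where all genes had 0.12. The log2 fold change turned sign for 10 of the 46 genes in MIR394A_OE against Col-0 without both libraries, and for 4 in bin2-1 against Col-0. The 6 tested genes of the SAUR62 to SAUR68 cluster had medians of 1.1 in MIR394A_OE and 0.82 in bin2-1 against Col-0, larger than those of the rest of the family; that difference was not tested.

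Groups did not overlap for 15 SAUR genes in MIR394A_OE against Col-0. Of these, 12 were higher in both MIR394A_OE libraries than in each Col-0 library (26.1% of the 46; 10.9% of all genes), and 3 were lower (6.52%; 6.17% of all genes). In bin2-1 against Col-0 this held for 7 genes higher and 4 lower (15.2% and 8.70%; 20.2% and 8.47% of all genes). In MIR394A_OE against bin2-1 it held for 9 higher and 5 lower (19.6% and 10.9%; 15.0% and 20.9% of all genes). The genes higher in every bin2-1 library were SAUR6, SAUR13, SAUR15, SAUR22, SAUR32, SAUR37 and SAUR45, and all but SAUR22 and SAUR45 were also higher in both MIR394A_OE libraries. Leaving out libraries can only add such genes: without both libraries that stood apart, 20 SAUR genes were higher and 10 lower in MIR394A_OE than in Col-0, as were 44.5% and 26.7% of all genes. In bin2-1 the 7 genes higher were the same without Col-0 replicate 1 (15.2%; 30.8% of all genes), and 5 were lower (10.9%; 11.5% of all genes).

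**Figure D2:**
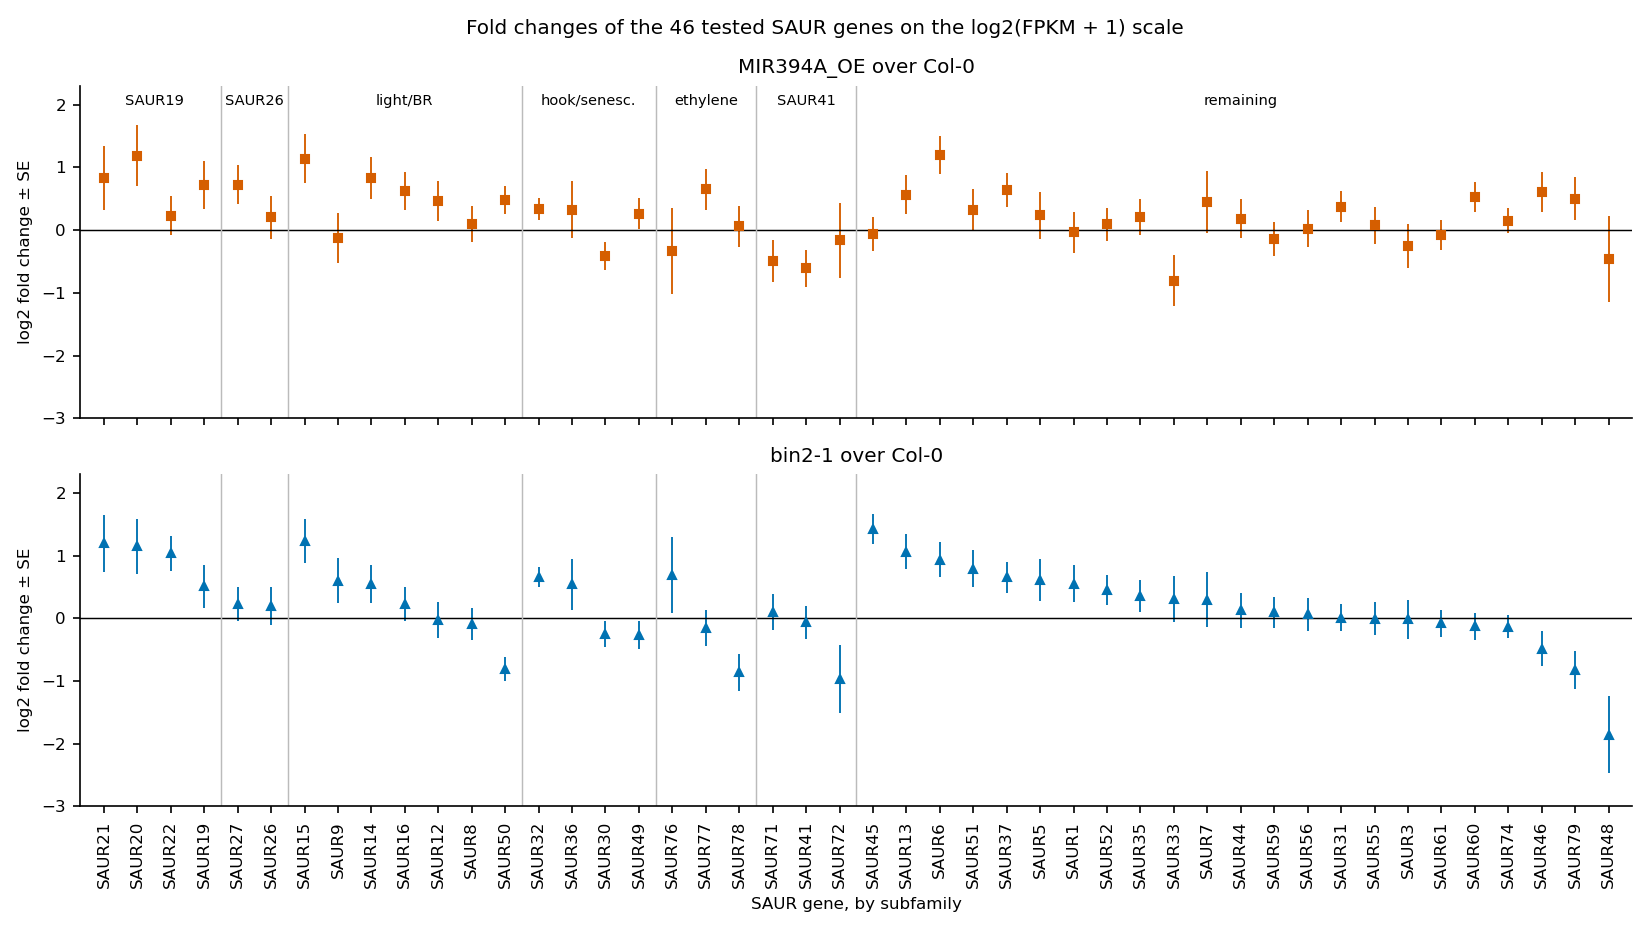
Log2 fold changes of the 46 tested SAUR genes on the log2(FPKM + 1) scale with their standard errors, MIR394A_OE over Col-0 in the upper panel and bin2-1 over Col-0 in the lower, grouped by subfamily along the x axis. All 4 SAUR19-type genes lie above 0 in both panels. SAUR45 (1.43) is the highest and SAUR48 (-1.86) the lowest point of the bin2-1 panel, and both panels share the Col-0 libraries.

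The SAUR19 subfamily, the best studied inhibitors of PP2C-D phosphatases, had 5 of its 6 genes listed and 4 tested. Its summed level was 11.4 and 19.8 FPKM in MIR394A_OE, 10.3, 17.7 and 27.7 FPKM in bin2-1, and 3.12, 7.09 and 10.8 FPKM in Col-0. Both MIR394A_OE sums lay above each Col-0 sum, while bin2-1 replicate 1 lay just below Col-0 replicate 3. All 4 tested genes had a log2 fold change above 0 in both comparisons, with a median of 0.77 in MIR394A_OE and 1.09 in bin2-1. None passed the test. An unadjusted p under 0.05 was found for 1 of 4 in MIR394A_OE and 3 of 4 in bin2-1, where all genes gave 4.78% and 17.8%, and for 0 of 4 and 1 of 4 without the libraries that stood apart. The counts of 4 of 4 above 0 were the same under both rescalings and without the libraries that stood apart, with medians of 0.91 in MIR394A_OE and 0.78 in bin2-1 without those libraries. With MIR394A_OE replicate 1 alone left out, the median in MIR394A_OE was 1.23.

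SAUR20 (AT5G18020), the most abundant of them, was at 7.67 and 9.45 FPKM in MIR394A_OE, at 4.69, 8.41 and 13.85 FPKM in bin2-1, and at 1.14, 4.55 and 5.14 FPKM in Col-0. Both MIR394A_OE values exceeded every Col-0 value, and bin2-1 overlapped Col-0. The log2 fold change was 1.19 in MIR394A_OE (SE 0.49, 95% interval 0.09 to 2.29; limma, adjusted p = 0.873) and 1.15 in bin2-1 (SE 0.44, 0.17 to 2.13; adjusted p = 0.226). Without Col-0 replicate 1, the lowest library, these values were 0.71 and 0.67. SAUR22 (AT5G18050) was at 0.57 and 0.78 FPKM in MIR394A_OE, at 1.59, 1.36 and 3.05 FPKM in bin2-1, and at 0.19, 0.22 and 0.98 FPKM in Col-0. Each bin2-1 library was above each of the other libraries, at levels that rest on few reads. Its log2 fold change was 1.04 in bin2-1 against Col-0 (SE 0.27; limma, adjusted p = 0.122) and -0.80 in MIR394A_OE against bin2-1 (SE 0.30; adjusted p = 0.211). SAUR21 was at 1.83 and 6.56 FPKM in MIR394A_OE, at 2.49, 5.73 and 8.07 FPKM in bin2-1, and at 0.70, 1.86 and 2.65 FPKM in Col-0, so it overlapped Col-0 in both lines.

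The levels within this subfamily are uncertain gene by gene, because its members are near copies. The coding sequences of SAUR19 and SAUR24 match at 95.2% of positions, those of SAUR19 and SAUR21 at 93.8% with an identical run of 86 nt, and those of SAUR22 and SAUR23 at 93.0%. Reads from such stretches could be counted for another member, and SAUR24 was not analysed here. The first 60 coding bases show how little separates the genes: capitals mark the 12 positions that differ among the 6. They are read from RefSeq in build TAIR10.1, in coding direction, at chr5:5963246-5963305 (minus strand, SAUR19), chr5:5966521-5966580 (minus, SAUR20), chr5:5968527-5968586 (plus, SAUR21), chr5:5974904-5974963 (minus, SAUR22), chr5:5976030-5976089 (plus, SAUR23) and chr5:5983840-5983899 (plus, SAUR24).
SAUR19: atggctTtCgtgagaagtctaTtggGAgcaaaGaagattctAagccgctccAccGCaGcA
SAUR20: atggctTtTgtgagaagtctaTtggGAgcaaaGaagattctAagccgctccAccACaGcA
SAUR21: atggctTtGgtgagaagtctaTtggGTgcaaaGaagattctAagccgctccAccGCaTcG
SAUR22: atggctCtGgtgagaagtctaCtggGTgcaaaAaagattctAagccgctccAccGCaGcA
SAUR23: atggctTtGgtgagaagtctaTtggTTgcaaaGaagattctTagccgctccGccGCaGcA
SAUR24: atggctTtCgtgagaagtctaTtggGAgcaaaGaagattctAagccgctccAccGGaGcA

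Next to each other on chromosome 4 lie SAUR13, SAUR14, SAUR15 and SAUR16, of which SAUR14 and SAUR16 are known to be induced by light in shoot organs and SAUR15 (SAUR-AC1) is a classical auxin-induced gene. Their summed level was 34.35 and 32.1 FPKM in MIR394A_OE, 20.7, 34.7 and 37.7 FPKM in bin2-1, and 12.5, 17.55 and 26.8 FPKM in Col-0. The MIR394A_OE sums exceeded every Col-0 sum, and bin2-1 replicate 1 fell inside the Col-0 range. All 4 genes had a log2 fold change above 0 in both comparisons with Col-0, with medians of 0.73 in MIR394A_OE and 0.81 in bin2-1. Without the libraries that stood apart the count was again 4 of 4, with medians of 0.53 and 0.57.

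SAUR15 (AT4G38850) was at 2.18 and 4.29 FPKM in MIR394A_OE, at 2.08, 4.64 and 3.82 FPKM in bin2-1, and at 0.18, 1.05 and 1.67 FPKM in Col-0. Each mutant library lay above each Col-0 library. Its mean was 3.23 ± 1.49 FPKM in MIR394A_OE (SD, n = 2), 3.51 ± 1.31 in bin2-1 (n = 3) and 0.967 ± 0.748 in Col-0 (n = 3). The log2 fold change was 1.14 in MIR394A_OE (SE 0.39, 95% interval 0.26 to 2.01; limma, adjusted p = 0.873) and 1.23 in bin2-1 (SE 0.35, 0.45 to 2.02; adjusted p = 0.137). SAUR15 was thus highest in the mutant libraries without passing the test in either line. The Col-0 values correspond to about 1.53, 7.85 and 14.1 reads by the annotated length, which is that of a later transcript version, so the true numbers may differ. SAUR13 (AT4G38825), with no sure role of its own, was at 4.40 and 5.52 FPKM in MIR394A_OE, at 4.59, 8.62 and 9.98 FPKM in bin2-1, and at 2.52, 2.44 and 4.32 FPKM in Col-0. It too was higher in each mutant library than in each Col-0 library, by a log2 fold change of 1.07 in bin2-1 (SE 0.28; limma, adjusted p = 0.123) and 0.57 in MIR394A_OE. SAUR13 overlaps a neighbouring gene in the annotation, so its reads may be shared. SAUR14 (AT4G38840) was at 14.2 and 12.97 FPKM in MIR394A_OE, at 7.39, 12.4 and 14.2 FPKM in bin2-1, and at 4.30, 8.55 and 9.85 FPKM in Col-0. Its log2 fold change was 0.83 in MIR394A_OE (SE 0.34; limma, adjusted p = 0.873), with no overlap with Col-0, and 0.55 in bin2-1 (SE 0.30; adjusted p = 0.368), with overlap. Leaving out Col-0 replicate 1 gave 0.52 in MIR394A_OE and 0.23 in bin2-1.

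SAUR50 (AT4G34760), a light-induced gene of cotyledon expansion, was set apart from these by its direction in bin2-1. It was at 29.2 and 17.9 FPKM in MIR394A_OE, at 8.54, 8.12 and 9.78 FPKM in bin2-1, and at 17.1, 16.8 and 14.7 FPKM in Col-0. Every bin2-1 library was below every Col-0 library, and both MIR394A_OE libraries were above. The means were 23.6 ± 7.99 FPKM in MIR394A_OE (SD, n = 2), 8.81 ± 0.863 in bin2-1 (n = 3) and 16.2 ± 1.34 in Col-0 (n = 3). The log2 fold change was -0.81 in bin2-1 (SE 0.20, 95% interval -1.25 to -0.37; limma, adjusted p = 0.108) and 0.48 in MIR394A_OE (SE 0.22, -0.01 to 0.97; adjusted p = 0.873). The MIR394A_OE value was 0.14 without MIR394A_OE replicate 1. Set directly against each other, MIR394A_OE exceeded bin2-1 by 1.29 on the log2 scale (SE 0.22, 0.80 to 1.78; limma, adjusted p = 0.0754). The lowest library held about 79.0 reads of SAUR50. Over the 7 tested light- and brassinosteroid-linked genes (SAUR8, SAUR9, SAUR12, SAUR14, SAUR15, SAUR16 and SAUR50), 6 were above 0 in MIR394A_OE (median 0.48) and 4 in bin2-1 (median 0.23). Without the libraries that stood apart these counts were 4 and 4, with medians of 0.18 and 0.09.

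**Figure D3:**
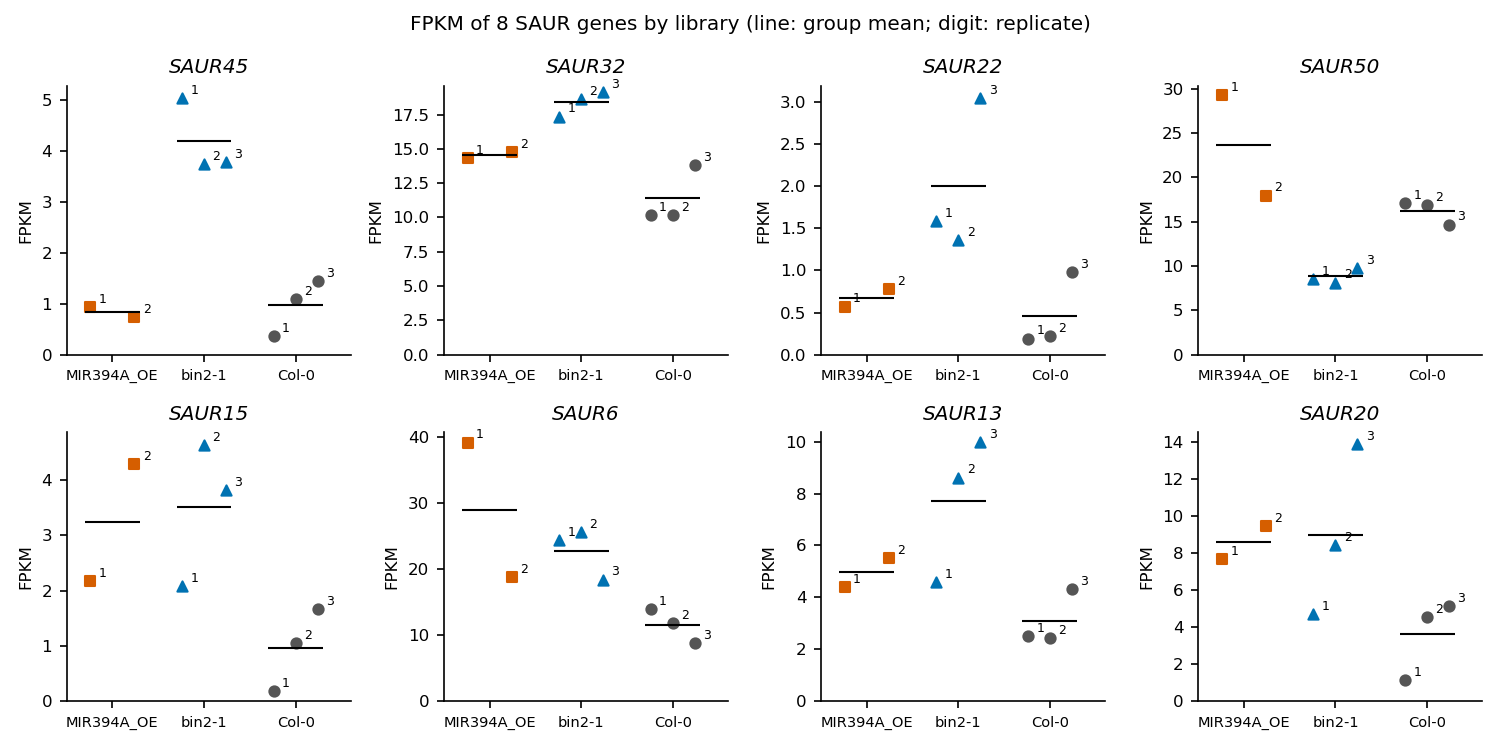
FPKM of SAUR45, SAUR32, SAUR22, SAUR50, SAUR15, SAUR6, SAUR13 and SAUR20 in each library, 1 panel a gene, with MIR394A_OE on the left (n = 2), bin2-1 in the middle (n = 3) and Col-0 on the right (n = 3). Lines are group means and digits replicate numbers; SAUR45 is at 3.74 to 5.04 FPKM in bin2-1 and at most 1.45 elsewhere, while SAUR50 is lowest in bin2-1.

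SAUR32 (AT2G46690), which acts in the apical hook, was at 14.3 and 14.8 FPKM in MIR394A_OE, at 17.4, 18.7 and 19.1 FPKM in bin2-1, and at 10.2, 10.2 and 13.8 FPKM in Col-0. The 3 groups did not overlap: bin2-1 was highest and Col-0 lowest. Its log2 fold change was 0.66 in bin2-1 against Col-0 (SE 0.16, 95% interval 0.29 to 1.02; limma, adjusted p = 0.109) and 0.34 in MIR394A_OE against Col-0 (SE 0.18; adjusted p = 0.873). SAUR36 (AT2G45210), a gene that promotes leaf senescence, was at 8.49 and 11.2 FPKM in MIR394A_OE, at 13.8, 8.45 and 13.0 FPKM in bin2-1, and at 3.07, 11.9 and 11.1 FPKM in Col-0. Only Col-0 replicate 1 was low among these 8 values. SAUR49 was slightly lower in each bin2-1 library (6.86 to 8.09 FPKM) than in each Col-0 library (8.59 to 10.15 FPKM), by -0.26 on the log2 scale (SE 0.22; limma, adjusted p = 0.547). SAUR30 was lower in both MIR394A_OE libraries (2.93 and 3.42 FPKM) than in each Col-0 library (3.61 to 5.65 FPKM), by -0.41 on the log2 scale (SE 0.23; limma, adjusted p = 0.873).

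SAUR76, SAUR77 and SAUR78 have been linked to ethylene receptor signalling. SAUR78 (AT1G72430) was at 178 and 155 FPKM in MIR394A_OE, at 79.9, 62.1 and 134 FPKM in bin2-1, and at 120.3, 217 and 155 FPKM in Col-0. Bin2-1 replicate 3 lay above Col-0 replicate 1, so these groups overlapped, while both MIR394A_OE values exceeded every bin2-1 value. On the log2 scale SAUR78 differed by -0.86 in bin2-1 against Col-0 (SE 0.29; limma, adjusted p = 0.190), 0.06 in MIR394A_OE against Col-0 (SE 0.33; adjusted p = 0.980) and 0.92 in MIR394A_OE against bin2-1 (SE 0.33; adjusted p = 0.194). The value near 0 in MIR394A_OE against Col-0 was -0.24 without both libraries that stood apart. SAUR77 showed 7.42 and 8.71 FPKM in MIR394A_OE, 3.10, 3.98 and 5.84 FPKM in bin2-1, and 3.82, 7.79 and 3.52 FPKM in Col-0. Both MIR394A_OE values were above every bin2-1 value, by 0.80 on the log2 scale (SE 0.32; limma, adjusted p = 0.226). SAUR76 split by library and not by group: it was at 0.42 and 5.37 FPKM in MIR394A_OE, at 5.14, 4.90 and 5.37 FPKM in bin2-1, and at 0.57, 4.89 and 4.91 FPKM in Col-0. The low values are those of the 2 libraries that stood apart, and all 6 others lie between 4.89 and 5.37 FPKM.

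The SAUR41 subfamily, whose proteins promote cell expansion, had 3 tested members, all below 0 in MIR394A_OE against Col-0 (median -0.49, and -0.35 without the libraries that stood apart) and 1 of 3 above 0 in bin2-1 (median -0.06, and -0.11 without Col-0 replicate 1). With Col-0 replicate 1 alone left out, 2 of 3 were below 0 in MIR394A_OE (median -0.33). With MIR394A_OE replicate 1 alone left out, the median in MIR394A_OE was -0.83. SAUR72 (AT3G12830), its most abundant member, was at 11.7 and 3.26 FPKM in MIR394A_OE, at 3.98, 3.72 and 2.24 FPKM in bin2-1, and at 18.2, 4.85 and 4.01 FPKM in Col-0. The same 2 libraries as for SAUR76 stood out, here on the high side. SAUR41 was at 0.92 and 0.42 FPKM in MIR394A_OE and at 1.35, 1.54 and 1.69 FPKM in Col-0, a difference of -0.61 on the log2 scale (SE 0.29; limma, adjusted p = 0.873). SAUR71 was at 1.99 and 1.88 FPKM in MIR394A_OE and at 4.19, 3.45 and 2.04 FPKM in Col-0, also without overlap. The 2 tested genes of the SAUR26 subfamily, known for temperature-responsive rosette growth, were above 0 in both comparisons, but without Col-0 replicate 1 SAUR26 was at -0.06 in each. SAUR26 (AT3G03850) was at 1.3 and 2.53 FPKM in MIR394A_OE, at 1.36, 1.48 and 2.90 FPKM in bin2-1, and at 0.73, 2.34 and 1.63 FPKM in Col-0, with overlap between all groups. SAUR27 (AT3G03840) was at 2.61 and 2.18 FPKM in MIR394A_OE, at 0.52, 2.16 and 1.87 FPKM in bin2-1, and at 1.26, 1.15 and 0.77 FPKM in Col-0. Its log2 fold change in MIR394A_OE was 0.73 against Col-0 (SE 0.31; limma, adjusted p = 0.873).

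SAUR45 (AT2G36210), to which no role is assigned here, had the smallest p of all SAUR genes in bin2-1 against Col-0. It was at 0.94 and 0.73 FPKM in MIR394A_OE, at 5.04, 3.74 and 3.78 FPKM in bin2-1, and at 0.36, 1.09 and 1.45 FPKM in Col-0. Every bin2-1 value was more than 2-fold above every other value, and MIR394A_OE lay inside the Col-0 range. The means were 0.835 ± 0.148 FPKM in MIR394A_OE (SD, n = 2), 4.19 ± 0.739 in bin2-1 (n = 3) and 0.967 ± 0.555 in Col-0 (n = 3). The log2 fold change was 1.43 in bin2-1 against Col-0 (SE 0.24, 95% interval 0.90 to 1.97; limma, adjusted p = 0.0619) and -1.49 in MIR394A_OE against bin2-1 (SE 0.27, -2.09 to -0.89; adjusted p = 0.0895). These levels correspond to about 33.1 to 44.1 reads in bin2-1 and 3.22 to 12.9 reads in the other libraries. The call depends on the libraries used: without Col-0 replicate 3 SAUR45 passed (log2 fold change 1.61, limma, adjusted p = 0.0348), and without Col-0 replicate 1 and MIR394A_OE replicate 1 it was at 1.19 (adjusted p = 0.111).

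SAUR6 (AT2G21210) was at 39.2 and 18.8 FPKM in MIR394A_OE, at 24.4, 25.6 and 18.4 FPKM in bin2-1, and at 13.9, 11.8 and 8.76 FPKM in Col-0. Each mutant library lay above each Col-0 library. SAUR6 had a log2 fold change of 1.20 in MIR394A_OE (SE 0.31, 95% interval 0.51 to 1.89; limma, adjusted p = 0.873) and 0.94 in bin2-1 (SE 0.27, 0.32 to 1.56; adjusted p = 0.144). It was 0.69 in MIR394A_OE without MIR394A_OE replicate 1. SAUR6 and its neighbour SAUR7 overlap in the annotation, so reads could be shared between them, and SAUR7 was below 3 FPKM in each library. SAUR37 (AT4G31320) was at 10.13 and 5.80 FPKM in MIR394A_OE, at 9.06, 8.89 and 5.81 FPKM in bin2-1, and at 5.05, 5.21 and 3.63 FPKM in Col-0. It was likewise higher in each mutant library, by 0.64 on the log2 scale in MIR394A_OE (SE 0.28; limma, adjusted p = 0.873) and by 0.65 in bin2-1, though the MIR394A_OE value was 0.28 without MIR394A_OE replicate 1. SAUR60 (AT1G20470) was at 5.39 and 3.85 FPKM in MIR394A_OE, at 2.03, 2.45 and 3.15 FPKM in bin2-1, and at 2.88, 3.64 and 2.15 FPKM in Col-0. MIR394A_OE alone stood above both other groups, by a log2 fold change of 0.54 over Col-0 (SE 0.24; limma, adjusted p = 0.873) and 0.66 over bin2-1 (SE 0.24; adjusted p = 0.199). The value over Col-0 was 0.34 without MIR394A_OE replicate 1. SAUR60 also overlaps neighbouring genes.

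SAUR79 (AT2G35290) was at 33.2 and 31.2 FPKM in MIR394A_OE, at 7.85, 13.2 and 17.6 FPKM in bin2-1, and at 23.2, 31.3 and 15.5 FPKM in Col-0. It was higher in both MIR394A_OE libraries than in each bin2-1 library, by 1.32 on the log2 scale (SE 0.34; limma, adjusted p = 0.119), and bin2-1 overlapped Col-0 (log2 fold change -0.82, SE 0.30; adjusted p = 0.216). SAUR46 (AT2G37030) was at 11.9 and 11.5 FPKM in MIR394A_OE, at 3.44, 3.89 and 8.90 FPKM in bin2-1, and at 6.93, 8.51 and 6.77 FPKM in Col-0. MIR394A_OE was above both other groups, by 1.08 over bin2-1 (SE 0.32; limma, adjusted p = 0.144) and 0.60 over Col-0 (SE 0.32; adjusted p = 0.873). Without bin2-1 replicate 3, the highest of its group, SAUR46 passed in MIR394A_OE against bin2-1 (log2 fold change 1.45, limma, adjusted p = 0.0379). SAUR33 (AT3G61900) was listed at 0 in MIR394A_OE replicate 1 and at 0.71 FPKM in replicate 2, against 1.67, 1.41 and 2.53 FPKM in bin2-1. Its log2 fold change was -1.11 (SE 0.41; limma, adjusted p = 0.200), and Col-0 spanned 0.53 to 3.06 FPKM. With MIR394A_OE replicate 1 left out it was -0.73.

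SAUR48 (AT3G09870) was at 6.38 and 2.49 FPKM in MIR394A_OE, at 0.72, 0.88 and 1.21 FPKM in bin2-1, and at 13.98, 9.18 and 1.24 FPKM in Col-0. Bin2-1 was below every other library, but Col-0 replicate 3 at 1.24 FPKM was close to the highest bin2-1 value of 1.21 FPKM. For SAUR48 the log2 fold change was -1.86 in bin2-1 against Col-0 (SE 0.62, 95% interval -3.25 to -0.47; limma, adjusted p = 0.182). Without Col-0 replicate 3 it was -2.68 and passed (limma, adjusted p = 0.0263). The spread among Col-0 libraries was thus as wide as the distance between the groups.

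**Figure D4:**
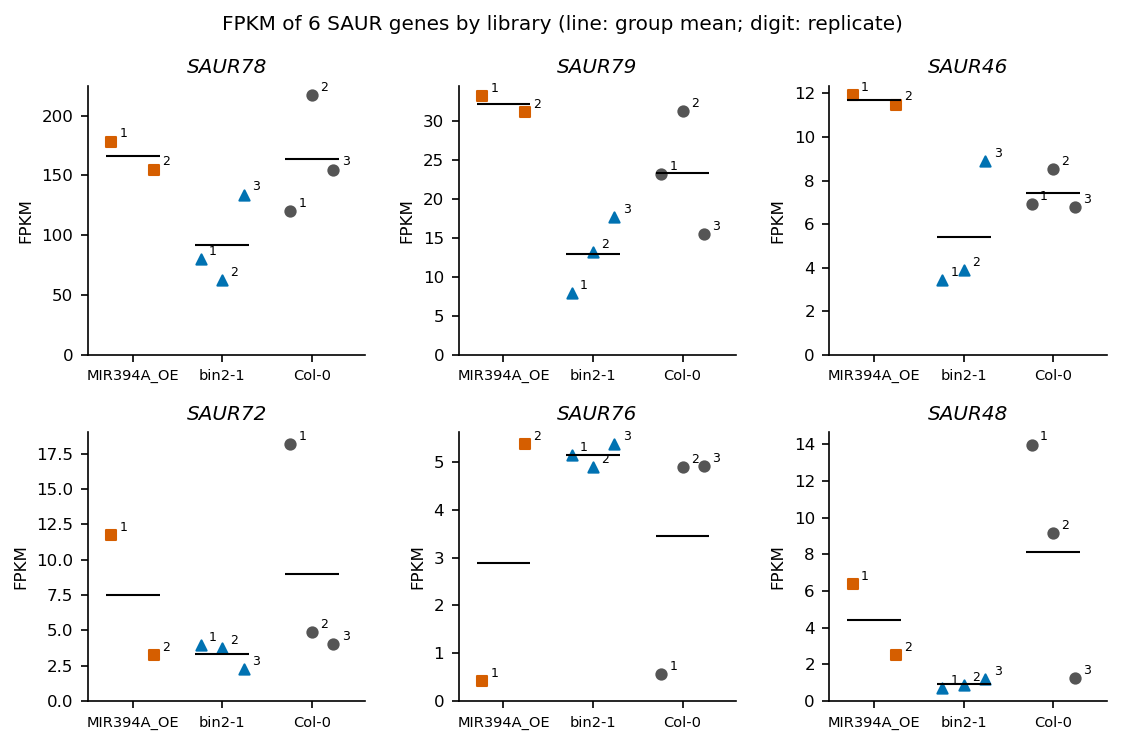
FPKM of SAUR78, SAUR79, SAUR46, SAUR72, SAUR76 and SAUR48 in each library, 1 panel a gene, with MIR394A_OE on the left (n = 2), bin2-1 in the middle (n = 3) and Col-0 on the right (n = 3). Lines are group means and digits replicate numbers; SAUR72 is high and SAUR76 low in replicate 1 of both MIR394A_OE and Col-0, and SAUR48 spans 1.24 to 13.98 FPKM within Col-0.

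Spread within groups was wide for the family. The highest and lowest library of a group differed by more than 2-fold for 10 of 46 genes in MIR394A_OE (n = 2), 20 in bin2-1 (n = 3) and 26 in Col-0 (n = 3). The median ratio of highest to lowest was 1.42, 1.89 and 2.09 in these groups, and a pair of libraries gives a smaller range than 3 by construction. Clock markers were read beside these values, since many SAUR genes are known to cycle over the day. The sum of 8 clock markers was 202 and 269 FPKM in MIR394A_OE, 196 to 250.2 FPKM in bin2-1 and 211 to 250.4 FPKM in Col-0, so the sums overlapped. LHY, a morning gene, was at 39.7 and 40.45 FPKM in MIR394A_OE, at 18.4 to 26.9 FPKM in bin2-1 and at 22.7 to 30.35 FPKM in Col-0. CCA1, its partner, was at 25.6 and 21.9 FPKM in MIR394A_OE, at 9.95 to 12.2 FPKM in bin2-1 and at 9.36 to 20.1 FPKM in Col-0, so both were highest in the MIR394A_OE libraries. TOC1, an evening gene, was at 30.5 and 66.5 FPKM in MIR394A_OE and at 60.3, 70.3 and 55.25 FPKM in Col-0, and GI was at 9.34 and 23.5 FPKM in MIR394A_OE and at 21.75, 18.5 and 21.6 FPKM in Col-0. TOC1 and GI were low in MIR394A_OE replicate 1 alone. The 6 clock markers other than LHY and CCA1 overlapped between MIR394A_OE and Col-0, and the part of harvest time in the SAUR values was not tested.

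By position, 26 of the 58 genes lie in 8 tandem runs, where neighbouring SAUR genes are within 20 kb of each other in TAIR10.1, and 21 of them were tested. Genes of the SAUR62 to SAUR68 cluster were not counted as neighbours, so a gene next to that cluster, such as SAUR61, can count as outside a run. All tested genes of the SAUR19 to SAUR23 and SAUR13 to SAUR16 runs described above were above 0 in both comparisons with Col-0. Of all tested SAUR genes, 71.7% in MIR394A_OE and 63.0% in bin2-1 were above 0. The run of SAUR7, SAUR6 and SAUR12 had 3 above 0 in MIR394A_OE, and 2 above and 1 below in bin2-1. The run of SAUR49, SAUR50, SAUR1, SAUR2, SAUR3 and SAUR5 on chromosome 4 was mixed in both. Of its 5 tested genes, 2 were above 0 and 3 below 0 in bin2-1 against Col-0, and 3 above and 2 below in MIR394A_OE against Col-0. Without Col-0 replicate 1 it was 3 above and 2 below in bin2-1, and without MIR394A_OE replicate 1 it was 2 above and 3 below in MIR394A_OE. In it SAUR50 was lowest in bin2-1, while SAUR1 was at 10.3, 7.0 and 7.13 FPKM in bin2-1, above 4.51 and 5.49 FPKM in MIR394A_OE and overlapping 3.32, 4.43 and 8.84 FPKM in Col-0. Neighbours share a chromosomal stretch and in places sequence, so they are not independent.

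The promoters of these genes were read for short motifs named in the general literature, in the 250 bases before the annotated start, on both strands. The E-box CACATG (HUD type, known from genes that auxin, brassinosteroid and other growth hormones induce around dawn) was in 20 of 58 SAUR promoters, or 34.5%, and in 11.1% of all 27443 protein-coding promoters of the same length. Of these 20 genes, 14 were among the 26 in tandem runs and 6 among the 32 outside, so neighbouring genes supply most of the count. The auxin response element TGTCTC was in 4 SAUR promoters (6.90%; 10.9% of all), and its relaxed form TGTCNC, which includes TGTCTC, in 13 (22.4%; 23.9% of all). The G-box CACGTG was in 1 (1.72%; 6.49% of all), and the brassinosteroid response elements CGTGTG and CGTGCG were in 3 and 1 (5.17% and 1.72%; 5.37% and 1.57% of all); the G-box and CGTGTG can overlap by shared letters. Among tested genes, the 17 with CACATG had a median log2 fold change of 0.56 in bin2-1 against Col-0, with 13 above 0, and the 29 without had 0.06, with 16 above 0. In MIR394A_OE against Col-0 these medians were 0.33 and 0.18. The 10 tested genes with TGTCNC had a median of 0.63 in MIR394A_OE, all above 0, and the 36 without had 0.13, with 23 above 0. In bin2-1 these medians were 0.77 with TGTCNC, where 8 of 10 were above 0, and 0.10 without. The tested genes with TGTCNC include SAUR19, SAUR20, SAUR21 and SAUR22, near copies in a single tandem run. They also include the neighbours SAUR13 and SAUR15, so these genes are not independent. Without both libraries that stood apart the medians in MIR394A_OE were 0.28 with CACATG and -0.01 without it, and 0.62 with TGTCNC (10 of 10 above 0) and -0.02 without it. In bin2-1 they were then 0.31 with CACATG and -0.04 without it, and 0.52 with TGTCNC (7 of 10 above 0) and 0.04 without it. Such matches are a description of letters, and both columns of values share the Col-0 libraries.

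**Figure D5:**
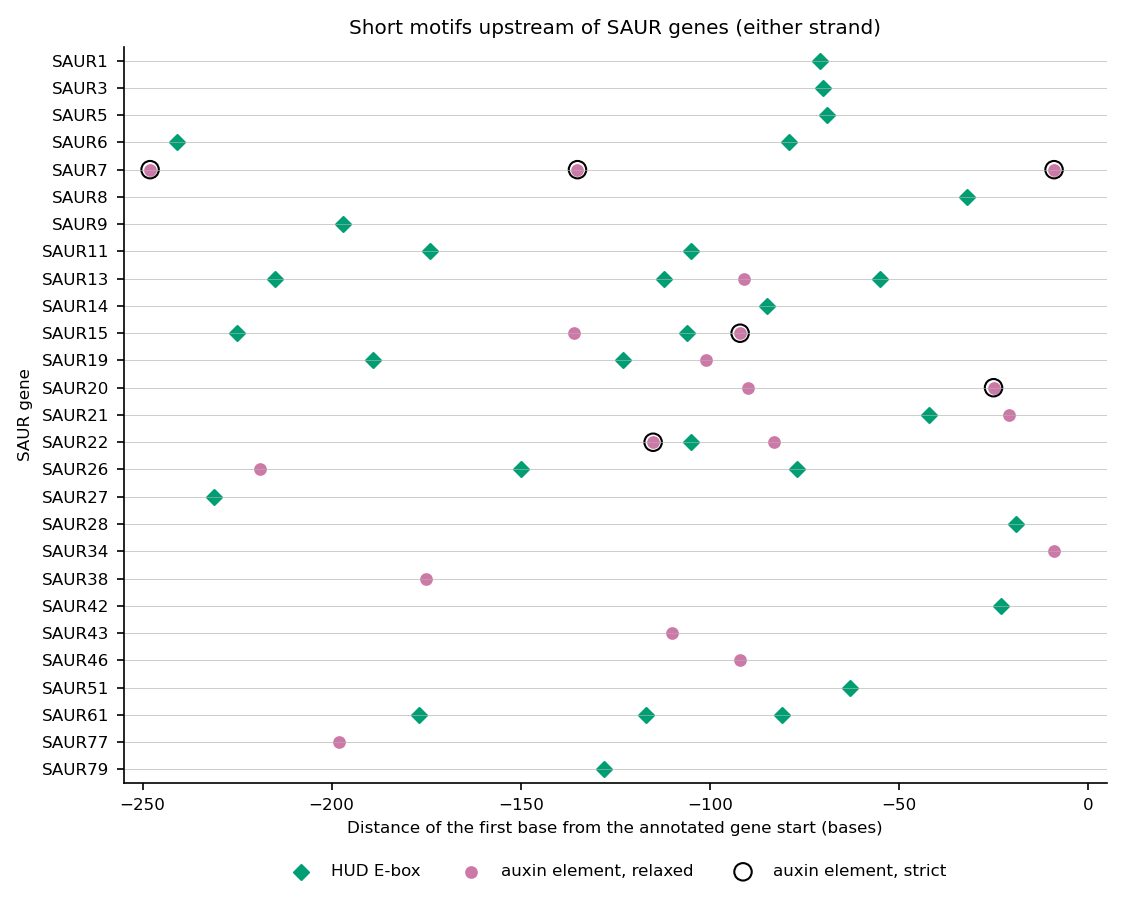
Positions of motif matches upstream of the 27 SAUR genes that have a HUD E-box or an auxin response element within 250 bases of the annotated start (x axis, bases from the start, either strand). Diamonds are HUD E-boxes, filled dots the relaxed auxin element and open circles its strict form; SAUR1, SAUR3 and SAUR5 hold an E-box at 71, 70 and 69 bases before their starts.

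Promoters of 4 members are shown as examples: SAUR15 and SAUR6, higher in every mutant library, and SAUR45 and SAUR50, separate in bin2-1 in opposite directions. SAUR13, SAUR32 and SAUR37 were also higher in every mutant library and are not shown. Of these, SAUR13 holds E-boxes and a TGTCNC match, while SAUR32 and SAUR37 hold none of the motifs. A link between motifs and direction was not tested. They are from RefSeq, build TAIR10.1, in the direction of transcription, at chr4:18125807-18126056 (plus strand, SAUR15), chr2:9086030-9086279 (minus, SAUR6), chr2:15186853-15187102 (minus, SAUR45) and chr4:16583076-16583325 (minus, SAUR50). Capitals mark matches to the motifs above on either strand. SAUR15 holds 2 E-boxes, a TGTCNC match and a TGTCTC match on the opposite strand, and SAUR6 holds 2 E-boxes. The windows of SAUR45 and SAUR50 hold none of these letters.
SAUR15: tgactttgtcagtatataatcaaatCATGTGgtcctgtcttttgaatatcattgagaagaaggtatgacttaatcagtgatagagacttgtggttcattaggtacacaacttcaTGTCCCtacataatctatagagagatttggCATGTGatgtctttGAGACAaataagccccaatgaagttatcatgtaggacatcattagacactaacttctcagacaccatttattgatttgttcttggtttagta
SAUR6: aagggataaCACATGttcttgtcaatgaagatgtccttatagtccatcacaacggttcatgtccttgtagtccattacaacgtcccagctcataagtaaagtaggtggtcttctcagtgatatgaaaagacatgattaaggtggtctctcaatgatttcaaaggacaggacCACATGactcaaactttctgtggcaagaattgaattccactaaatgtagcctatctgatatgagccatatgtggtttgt
SAUR45: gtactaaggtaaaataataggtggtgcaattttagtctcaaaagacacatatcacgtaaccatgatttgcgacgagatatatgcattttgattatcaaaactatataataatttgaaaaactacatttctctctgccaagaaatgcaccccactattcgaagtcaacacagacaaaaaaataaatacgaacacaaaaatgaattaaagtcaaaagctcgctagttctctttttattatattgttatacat
SAUR50: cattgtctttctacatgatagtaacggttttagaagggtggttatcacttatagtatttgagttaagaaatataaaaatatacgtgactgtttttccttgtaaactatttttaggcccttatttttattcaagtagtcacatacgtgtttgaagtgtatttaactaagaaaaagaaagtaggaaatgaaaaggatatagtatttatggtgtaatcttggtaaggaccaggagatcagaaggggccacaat

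Genes of the pathway around the SAUR proteins were read from 6 lists, and none of their members passed the test in either comparison with Col-0. Of 9 PP2C-D phosphatases, the direct targets of SAUR19-type proteins, 0 had an unadjusted p under 0.05 in MIR394A_OE (4.78% of all genes). In bin2-1 there were 3 (2 higher, 1 lower), where all genes gave 17.8%. Without Col-0 replicate 1 there was 1 in bin2-1, where all genes gave 16.5%. PP2C.D8 (AT4G33920) was at 131 and 93.9 FPKM in MIR394A_OE, at 20.96, 28.3 and 55.5 FPKM in bin2-1, and at 128, 123 and 54.4 FPKM in Col-0. Like SAUR48, it was low in Col-0 replicate 3 as well as in bin2-1, and its log2 fold change in bin2-1 was -1.54 (SE 0.40; limma, adjusted p = 0.122). PP2C.D2 had 0.36 in bin2-1 (SE 0.13; limma, adjusted p = 0.221). PP2C.D1, the other gene higher there, had 1.56 (SE 0.59; limma, adjusted p = 0.228). It was at 92.7, 83.9 and 163 FPKM in bin2-1, at 15.1, 39.5 and 76.7 FPKM in Col-0, and at 21.7 and 72.7 FPKM in MIR394A_OE. Col-0 replicate 1 was its lowest library, so its fold change in bin2-1 is smaller without that library. In MIR394A_OE PP2C.D9 and PP2C.D6, the list members with the smallest p, had 0.12 and -0.12. These turned to -0.04 and 0.07 without MIR394A_OE replicate 1.

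Of 8 tested proton pumps, which the PP2C-D phosphatases switch off, 7 were below 0 in MIR394A_OE against Col-0 and 7 above 0 in bin2-1 against Col-0. Of all genes, 55.6% and 63.4% were above 0 in these comparisons. Without MIR394A_OE replicate 1 only 3 of 8 pumps were below 0 in MIR394A_OE, where 58.5% of all genes were above 0. AHA2 (AT4G30190), a main pump of seedlings, was at 89.1 and 107 FPKM in MIR394A_OE, at 188, 173 and 156 FPKM in bin2-1, and at 151, 135 and 166 FPKM in Col-0. Both MIR394A_OE values were below all others. Its log2 fold change was -0.61 in MIR394A_OE (SE 0.17; limma, adjusted p = 0.873), and that of AHA1 was also -0.61 (SE 0.25; adjusted p = 0.873). AHA1 was at 115 and 226 FPKM in MIR394A_OE and at 233, 253 and 257 FPKM in Col-0, and its fold change was -0.13 without replicate 1, where AHA2 was at -0.48. In bin2-1 the 2 pumps with the smallest p were AHA8 at 0.50 and AHA7 at 0.33.

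Upstream, the 4 auxin receptors were all above 0 in bin2-1, where AFB3 had 0.53 (SE 0.19; limma, adjusted p = 0.203) and AFB1 0.46 (SE 0.19; adjusted p = 0.257), and in MIR394A_OE AFB1 had -0.32 and TIR1 -0.23. TIR1 in bin2-1 was at 0.03, and at -0.02 without Col-0 replicate 1. The 5 activating ARF factors, which bind auxin response elements, were all above 0 in bin2-1, led by ARF6 at 0.73 (SE 0.23; limma, adjusted p = 0.161) and ARF19 at 0.71 (SE 0.35; adjusted p = 0.316). In MIR394A_OE ARF6 had -0.42 and ARF7 -0.30. Both were low in MIR394A_OE replicate 1 alone: ARF7 was at 8.00 and 20.4 FPKM in MIR394A_OE and at 13.6 to 18.96 FPKM in Col-0. Of 5 PIF and BZR factors in bin2-1, PIF3 had 0.82 (SE 0.21; limma, adjusted p = 0.116) and BES1 -0.46 (SE 0.15; adjusted p = 0.186), and in MIR394A_OE PIF5 had 0.25 and BZR1 -0.09. The TMK kinases, which activate the pumps in response to auxin, had -0.52 (TMK1) and -0.51 (TMK4) in bin2-1 and -0.02 and -0.04 in MIR394A_OE. Without MIR394A_OE replicate 1 the MIR394A_OE values were -0.03 for AFB1, 0.12 for TIR1, -0.0026 for ARF6, 0.33 for ARF7, 0.17 for BZR1, 0.39 for TMK1 and 0.47 for TMK4, and PIF5 was at 0.43 without both libraries. In bin2-1 the ARF factors and, but for TIR1, the receptors thus lay above 0 with and without Col-0 replicate 1, as did 63.4% and 64.7% of all genes.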

How the data were processed

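Expression came as a single matrix of FPKM (reads or fragments scaled to transcript length and library size), 1 column a library, deposited by the authors, per the file headers and the labels. The submitters' processing notes name Bowtie2 and HISAT but not what each did; which program gave FPKM, which build was used and whether strand was used are unknown here. RNA was prepared with an RNeasy Plant Mini kit and a TruSeq RNA kit, per the labels' protocols.

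Names came from the RefSeq TAIR10.1 gene table by gene number, which matched 22798 of the 22951 genes and left 153 unmatched. The 58 SAUR members, their subfamilies, the pathway and marker lists and the motifs were chosen with earlier results of these data known. Depth was estimated from steps between low FPKM values of 1646 genes of 500 to 1800 nt. Of values worth up to 5 reads, 87.6% to 92.0% were whole to within 0.1 read, where chance gives 20%. Approximate reads of a gene use its TAIR10.1 transcript length. For only 9 of the 58 members is that transcript version the one named in the expression matrix, so these read numbers may be too high or too low.

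Since FPKM are not counts, limma 3.58.1 in R 4.3.3 was run on log2(FPKM + 1), which understates fold changes of genes near 1 FPKM. A filter on the mean over the 8 libraries (1 FPKM or more) left 18798 genes. The model had group means for all 8 libraries, no covariate, and eBayes with trend and robust. Two-sided p-values were adjusted over all genes of a comparison by Benjamini-Hochberg (threshold 0.05), and intervals are at 95%. Members given in every library are those with the 8 smallest p among non-overlapping genes of a comparison, the 6 most abundant, and the most abundant of each subfamily; others were named after their values were seen. Of each pathway list the 2 genes with the smallest p are named, and PP2C.D1 besides. The fit was tested on simulated data. Motifs and coding identity (matches over the longer coding length, Biopython 1.88, Python 3.11.15) were computed on TAIR10.1.

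Alternatives changed the pseudocount, filter, scaling, groups fitted, eBayes form and libraries included, or added the replicate number as a block. Leaving out Col-0 replicate 1 with MIR394A_OE replicate 1, and a threshold of 0.10, were added after seeing the data.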

Additional observations from a re-analysis of the deposited data

How the results depend on the processing

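No SAUR gene was called in any comparison under any alternative on pseudocount, filter, scaling, groups in the fit, replicate block or eBayes; exceptions arose when a library was left out or the threshold was 0.10. Each left-out library gave 0 to 0 SAUR calls in MIR394A_OE against Col-0, 0 to 2 in bin2-1 against Col-0 and 0 to 3 in MIR394A_OE against bin2-1. The calls were SAUR45 and SAUR48 in bin2-1 without Col-0 replicate 3. In MIR394A_OE against bin2-1 they were SAUR45, SAUR49 and SAUR50 without MIR394A_OE replicate 2, SAUR46 without bin2-1 replicate 3 and SAUR45 without Col-0 replicate 1 (adjusted p = 0.0498). At a threshold of 0.10, 1 SAUR gene (SAUR45) passed in bin2-1 against Col-0 and 2 (SAUR45 and SAUR50) in MIR394A_OE against bin2-1. Over 24 pairs of a named member and a comparison, 415 of 421 alternative values kept direction and side of the threshold, 6 passed anew and 0 reversed. These pairs were picked among non-overlapping genes, whose sign cannot turn when a library is left out, and none had passed before. The count of reversals is therefore no measure of stability. Among all tested SAUR genes, the sign turned for 10 in MIR394A_OE and 4 in bin2-1 against Col-0 without both libraries that stood apart.

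The median over SAUR genes in MIR394A_OE against Col-0 was 0.35 with a pseudocount of 0.1 and 0.43 with a minimum mean of 5 FPKM (20 genes), and 0.19 to 0.31 with a library left out. In bin2-1 against Col-0 it was 0.0605 without Col-0 replicate 1, alone or together with MIR394A_OE replicate 1, and 0.0605 to 0.307 over the left-out libraries. Between the mutant lines it was 0.27 with a minimum mean of 5 FPKM and -0.08 to 0.07 with a library left out.

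Counts over all genes were less stable. Fits of only the groups compared called 0 genes in each comparison (572, 4224 and 3133 at an unadjusted p under 0.05 in MIR394A_OE against Col-0, bin2-1 against Col-0 and MIR394A_OE against bin2-1). For bin2-1 against Col-0, where 21 genes passed (10 higher, 11 lower), the count was 3 with no filter, 111 with median-of-ratios scaling (17 higher, 94 lower), 9 without trend and robust, 1 without the 2 libraries that stood apart and 293 at a threshold of 0.10. For MIR394A_OE against bin2-1, with 10 in the report, it was 6 with a pseudocount of 0.1, 6 with 0.5, 3 with no filter, 2 without the 2 libraries and 75 at 0.10. With a library left out the ranges were 0 to 2 in MIR394A_OE against Col-0, 0 to 180 in bin2-1 against Col-0 (most without Col-0 replicate 3, and 171 without bin2-1 replicate 3) and 1 to 2308 in MIR394A_OE against bin2-1 (most without MIR394A_OE replicate 2). The cause was not tested.

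Deviations of same-numbered libraries from their group means correlated at r = 0.36 and 0.27 between MIR394A_OE and Col-0. The values were 0.08, -0.20 and -0.11 between bin2-1 and Col-0, and 0.32 and 0.03 between MIR394A_OE and bin2-1. Deviations cancel out within a group, and those of the MIR394A_OE libraries mirror each other, so these values are not independent. With so few libraries they cannot decide whether replicate numbers pair the samples. With the replicate number as a block, 32 genes passed in bin2-1 against Col-0 (15 higher, 17 lower) and no SAUR gene passed in any comparison.

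Members near 1 FPKM rest on few reads, so differences among them were often not detectable at this depth.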

Other observations

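Rows for a pair of SAUR genes matched the gene table by transcript only, under gene numbers that the table no longer holds, and so entered no count above. SAUR58 (AT1G43040) was at 1.23 and 1.59 FPKM in MIR394A_OE, at 0.32, 0.32 and 0.31 FPKM in bin2-1, and at 1.25, 0.71 and 0.63 FPKM in Col-0. Each bin2-1 value was below each value of the other groups, at a level of very few reads. SAUR57 (AT3G53250) was at 7.02 and 2.41 FPKM in MIR394A_OE, at 2.14, 2.4 and 4.99 FPKM in bin2-1, and at 4.44, 2.37 and 2.4 FPKM in Col-0, with overlap between all groups.

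Weakly expressed members below the filter were also read by library, and only SAUR54 is given here, picked after its values were seen. SAUR54, a light-linked gene, was at 0.25 and 0.26 FPKM in MIR394A_OE, at 0.53, 0.64 and 0.38 FPKM in bin2-1, and at 0.13, 0 and 0.13 FPKM in Col-0. Each mutant library was above each Col-0 library, at about 2.34 and 2.35 reads in MIR394A_OE, 3.55 to 5.79 reads in bin2-1 and 0 to 1.19 reads in Col-0. None of the other members below the filter showed this pattern, and its share among all genes was not counted.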
